A study of Mus musculus with 9 samples.

Results

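The liver reads its chemical and lipid surroundings through a small group of ligand-activated transcription factors, and 10 of their genes are described here in mouse liver after an overdose of acetaminophen. They are Nr1i2, Nr1i3, Ahr, Rxra, Nr1h3, Pparg, Ppard, Esrra, Nr3c1 and Thrb. They were taken by name from the deposited table of mRNA levels, in which each of them has a row, and they make up 10 of its 21870 genes. All 10 passed the filter on low values, as did 11557 genes in all. The mRNA level is given in FPKM, fragments per kilobase of transcript scaled to a fixed number of mapped fragments, a scale per length on which genes can be set side by side.

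The mice were wild-type C57 BL6 animals of 8 weeks and 20 g on average. The dmPGE2+APAP group received dmPGE2, an analogue of prostaglandin E2 that resists breakdown, at 300 μg/kg into the abdomen 1 h before acetaminophen (APAP) at 500 mg/kg. The APAP group received the same dose of acetaminophen by the same route, and saline alone was given to the control group. RNA was taken from the liver at 6 h, and each group has 3 libraries. Nothing in the labels says whether a library comes from 1 animal or a pool, so the p-values measure the spread between these libraries.

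PXR (encoded by Nr1i2) and CAR (Nr1i3) sense drugs and other foreign compounds and switch on cytochrome P450, conjugation and transporter genes, among them enzymes that turn acetaminophen into its reactive product. AHR (Ahr) senses planar aromatic compounds and is not a nuclear receptor by sequence but a basic helix-loop-helix protein, which pairs with ARNT. RXR alpha (Rxra) is the shared partner with which PXR, CAR, LXR, PPAR and thyroid hormone receptors bind DNA. LXR alpha (Nr1h3) senses oxysterols, PPAR gamma and PPAR delta (Pparg, Ppard) sense fatty acids, and ERR alpha (Esrra) is an orphan receptor that drives mitochondrial genes. The glucocorticoid receptor (Nr3c1) and thyroid hormone receptor beta (Thrb) answer to hormones.

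The label of the samples as liver was checked against 17 hepatocyte genes, which summed to between 49408 and 60456 FPKM in every library. Deposited mRNA values summed to between 371958 and 393938 FPKM per library, and between 9979 and 10321 genes per library reached 1 FPKM. The depth behind them is unknown, and no interval or floor from counting is given. The lncRNA values named read counts are not counts, and the mRNA ones were not checked in the same way. Control replicate 3 stood apart from the other controls, at -32.4 on the second principal component (12.6% of the variance) against 15.4 and 16.1. In whole liver, fewer cells of a type and less RNA per cell cannot be told apart.

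Promoter sequences are shown for members whose mRNA fell after acetaminophen, as described below. From the RefSeq table on GRCm38.p6, 13 starts of 8 of the 10 genes were used. Ahr and Nr3c1 are named only. These are the 250 bases before a start, for the starts of Rxra and Pparg whose window holds no annotated exon. Capitals mark GGGCGG, the box bound by Sp factors, or AGGTCA, the hexamer that many nuclear receptors bind, on either strand, and GCGTG, the core bound by AHR with ARNT, was also searched. No window shown holds more than 1 of the 3 motifs.
Rxra, the first start (chr2:27676951-27677200, + strand): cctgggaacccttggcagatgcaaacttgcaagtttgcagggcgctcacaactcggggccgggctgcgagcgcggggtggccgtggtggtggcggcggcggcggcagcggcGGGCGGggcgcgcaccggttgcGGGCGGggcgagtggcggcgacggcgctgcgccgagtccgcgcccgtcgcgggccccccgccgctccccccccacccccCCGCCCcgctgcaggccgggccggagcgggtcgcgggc
Rxra, the second start (chr2:27709042-27709291, + strand): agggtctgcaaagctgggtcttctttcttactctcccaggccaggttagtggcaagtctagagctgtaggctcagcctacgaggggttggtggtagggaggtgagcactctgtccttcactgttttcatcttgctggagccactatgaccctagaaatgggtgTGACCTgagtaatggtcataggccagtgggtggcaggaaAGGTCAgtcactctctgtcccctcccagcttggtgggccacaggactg
Pparg, the third start (chr6:115421816-115422065, + strand): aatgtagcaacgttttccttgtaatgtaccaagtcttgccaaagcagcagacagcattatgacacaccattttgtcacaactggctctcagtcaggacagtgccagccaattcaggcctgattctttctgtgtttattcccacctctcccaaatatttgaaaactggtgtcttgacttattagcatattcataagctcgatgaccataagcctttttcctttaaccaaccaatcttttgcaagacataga
The first Rxra window is 81.2% G and C and holds 3 GGGCGG boxes. The second Rxra window holds 2 AGGTCA hexamers, 1 on each strand. The Pparg window is 40.8% G and C and holds none of the 3 motifs. Over 32851 starts of all genes in the same table, 32.7% of windows hold GGGCGG, 14% AGGTCA and 28.2% GCGTG. Of the 13 starts used for the receptor genes, 6 hold GGGCGG, 4 AGGTCA and 4 GCGTG. A match describes these letters only.

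In untreated liver the levels spanned a wide range. Rxra was the highest of the 10 at 136.6 ± 5.99 FPKM (mean ± SD, n = 3, here and below), followed by Nr1i3 at 47.7 ± 11.8, and these ranges overlapped with no other member. Nr1h3 at 27.3 ± 0.618 and Nr1i2 at 24.7 ± 4.43 overlapped, as did Nr1i2 with Nr3c1 at 20.9 ± 6.57. Nr3c1, Ahr (12.7 ± 2.03), Thrb (12.3 ± 3.16) and Esrra (11.9 ± 1.13) each overlapped with the next in that order. Pparg at 2.97 ± 0.177 and Ppard at 1.36 ± 0.0174 were the lowest and did not overlap. Over all 9 libraries, Rxra lay above 96.1% of the tested genes and Ppard above 22.4%.

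The order differed in APAP livers. Rxra, Nr1i3, Nr1i2 and Nr1h3 held the top 4 places with no overlap between neighbours, with Nr1i2 above Nr1h3, the reverse of their order in controls, where they overlap. Ahr stood in place 8 there, at 8.92 ± 0.525 FPKM in APAP livers, and overlapped with Esrra. Ppard at 2.44 ± 0.797 FPKM stood above Pparg at 0.719 ± 0.126 FPKM in APAP livers, with no overlap, the reverse of their order in controls. In dmPGE2+APAP livers Pparg (2.22 ± 0.969) and Ppard (1.71 ± 0.464) overlapped, and Ahr at 16.5 ± 4.13 FPKM stood in place 5.

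**Figure D1:**
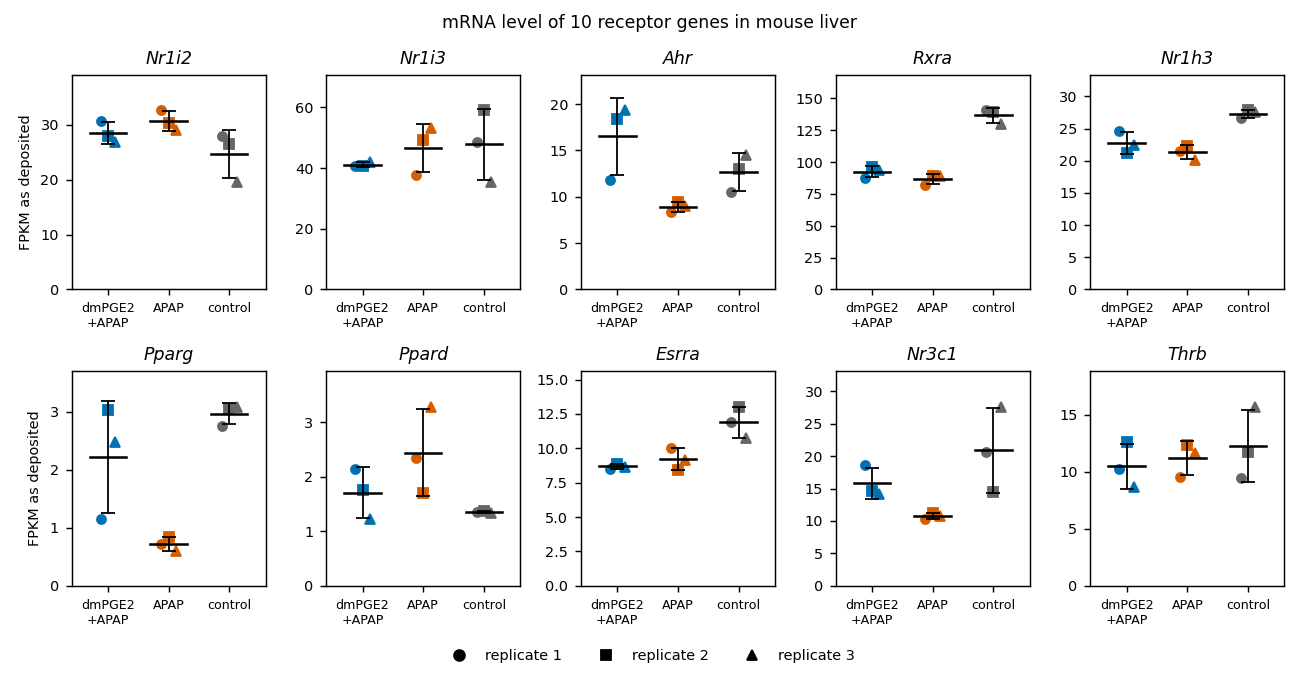
Deposited FPKM (y axis, linear, from 0) of the 10 genes in each of the 3 libraries per group; the bar is the mean and the whisker the SD. The APAP libraries of Rxra, Pparg and Nr3c1 all lie under the control libraries, and those of Ppard all lie above them.

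The comparison of APAP with control asks how the overdose alone moved these receptors by 6 h. Of the 10 genes, 3 fell, Pparg to 0.29 of the control level, Nr3c1 to 0.58 and Rxra to 0.69, and 1 rose, Ppard by 1.83-fold (limma, Benjamini-Hochberg adjusted over all genes). Over all tested genes 20.7% passed, 11.3% higher and 9.4% lower in APAP livers, where on FPKM as deposited 31.6% of the calls were higher and with rescaling 54.6%. The deposited values of the 2 groups did not overlap for 8 of the 10 genes, 2 higher and 6 lower in APAP livers, where 43.6% of all tested genes do not overlap (12.9% higher and 30.6% lower). The median log2 fold change of the 10 was -0.24, beside -0.02 over all tested genes. With 3 libraries a side, the smallest p of an exact permutation test is 0.1, and the calls depend on the spread shared over all genes in limma.

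Rxra, the common partner (ENSMUSG00000015846, GRCm38 chromosome 2, 27676440 to 27762957), was at 82.2, 88.7 and 89.0 FPKM in APAP livers, against 140.5, 139.6 and 129.7 FPKM in controls. Every APAP library lay well below every control. The log2 fold change was -0.53 (SE 0.0919, limma adjusted p = 0.00451), and the call held under each of 20 other settings. As FPKM are relative to the library's total, a change of scale moves every gene alike, and on deposited values with no rescaling the log2 difference of APAP from control shifts by 0.122 downward.

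Pparg (ENSMUSG00000000440, chromosome 6, 115360951 to 115490399), which in liver is low and is known for driving fat storage in adipocytes, was at 0.716, 0.847 and 0.595 FPKM in APAP livers and at 2.76, 3.05 and 3.09 FPKM in controls. The groups are far apart. Its log2 fold change was -1.80 (SE 0.295, limma adjusted p = 0.00367), and it too was called under each setting tried. Since 0.1 was added before the logarithm, this understates the ratio of a gene at this level. Of 8 adipocyte markers, which would show fat tissue carried along with the liver, Lep was at 0 in all libraries and Adipoq reached at most 0.137 FPKM. Their sum was 69.3 to 113 FPKM in APAP livers and 7.14 to 10.6 FPKM in controls, and the 3 that passed the filter were Cidec, Fabp4 and Lipe. Cidec, a lipid droplet gene that hepatocytes also express, was at 62.6 to 104.6 FPKM in APAP livers and 0.585 to 3.83 FPKM in controls. Fabp4, a fatty acid carrier gene, also rose (log2 fold change 1.07, limma adjusted p = 0.00594), and Lipe, the hormone-sensitive lipase gene, fell (-0.57, adjusted p = 0.0259). Their part in the value of Pparg was not tested.

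Nr3c1 (ENSMUSG00000024431, chromosome 18, 39410545 to 39519421) was at 10.4, 11.3 and 10.8 FPKM in APAP livers and at 20.7, 14.5 and 27.6 FPKM in controls. The APAP libraries agree closely, while the controls differ among themselves by more than the group means do, with the highest value in control replicate 3. The log2 fold change was -0.77 (SE 0.201, limma adjusted p = 0.0259). Without control replicate 1, APAP replicate 1 or APAP replicate 3 the call was lost, with adjusted p of 0.0701, 0.0754 and 0.0694, while the log2 fold change was between -0.999 and -0.60 over all leave-outs.

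Ppard (ENSMUSG00000002250, chromosome 17, 28232700 to 28301474), a receptor found in most tissues that promotes fatty acid use, was at 2.34, 1.70 and 3.29 FPKM in APAP livers and at 1.35, 1.38 and 1.34 FPKM in controls. The controls are almost equal and the APAP libraries spread widely above them. The log2 fold change was 0.87 (SE 0.239, limma adjusted p = 0.0323). This call was the least firm of the 4. It was lost with no filter on low values (adjusted p = 0.0513), on FPKM as deposited (0.0519), and with any 1 of the 3 controls, APAP replicate 1 or APAP replicate 3 left out, where the adjusted p was 0.0718 to 0.109. It was also lost without dmPGE2+APAP replicate 2 (adjusted p = 0.0506), a library of neither group.

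**Figure D2:**
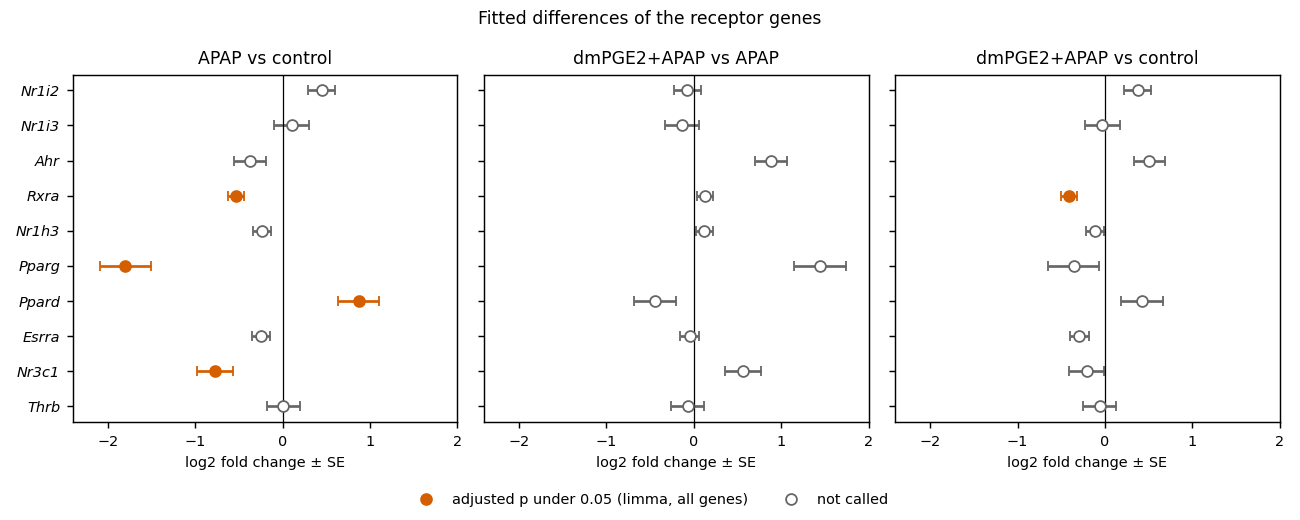
Log2 fold change with its SE (x axis) of each gene (rows) in the 3 comparisons, from limma; filled points passed an adjusted p of 0.05 over all genes tested. In APAP against control Rxra, Pparg and Nr3c1 lie left of 0 and Ppard right of it, no gene passed in dmPGE2+APAP against APAP, and Rxra alone of the 10 passed in dmPGE2+APAP against control.

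The xenobiotic receptors did not pass the test after acetaminophen. Nr1i2 (ENSMUSG00000022809, chromosome 16, 38248323 to 38294824) was at 32.6, 30.3 and 29.0 FPKM in APAP livers and at 27.8, 26.5 and 19.6 FPKM in controls. All APAP values lie above all controls (log2 fold change 0.45, SE 0.154, limma adjusted p = 0.0699). Nr1i3 (ENSMUSG00000005677, chromosome 1, 171213970 to 171220701) was at 37.7, 49.1 and 53.1 FPKM in APAP livers and at 48.7, 59.0 and 35.5 FPKM in controls. These overlap throughout, with a log2 fold change of 0.10 (SE 0.199) that is -0.02 on FPKM as deposited. Ahr (ENSMUSG00000019256, chromosome 12, 35497974 to 35535038) was at 8.36, 9.41 and 8.99 FPKM in APAP livers and at 10.5, 13.0 and 14.5 FPKM in controls. Its APAP libraries all lie below the controls (log2 fold change -0.37, SE 0.181, adjusted p = 0.176).

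Nr1h3 and Esrra showed small differences that missed the threshold. Nr1h3 (ENSMUSG00000002108, chromosome 2, 91184061 to 91202834) was at 21.5, 22.4 and 20.2 FPKM in APAP livers and at 26.6, 27.8 and 27.5 FPKM in controls. Esrra (ENSMUSG00000024955, chromosome 19, 6910977 to 6921813) was at 10.01, 8.41 and 9.17 FPKM in APAP livers and at 11.9, 13.0 and 10.8 FPKM in controls. Neither overlaps between the groups, and the log2 fold changes were -0.23 (SE 0.101, limma adjusted p = 0.130) and -0.25 (SE 0.108, adjusted p = 0.137). On deposited FPKM with no rescaling both passed, with adjusted p of 0.0153 for Nr1h3 and 0.0272 for Esrra, and Esrra also passed without control replicate 3 (adjusted p = 0.0307).

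Thrb was at 9.51, 12.3 and 11.7 FPKM in APAP livers and at 9.44, 11.7 and 15.7 FPKM in controls. The ranges overlap, the log2 fold change was 0.01 (SE 0.187), and its sign turned on FPKM as deposited (-0.11). The Thrb row (ENSMUSG00000021779, chromosome 14, 17626440 to 18038090) starts where an assembled antisense transcript, Thrb-AS1, also starts, so reads of the opposite strand may be in its value, and it is read as uncertain.

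The comparison of dmPGE2+APAP with APAP asks what the prostaglandin added to the overdose. Ahr, Pparg and Nr3c1 were each at a higher level in every dmPGE2+APAP library than in any APAP library, but none of the 10 genes passed, and none of the 11557 genes did (0 by limma, with 1082 at an unadjusted p under 0.05, or 9.36%). At that unadjusted level 3 of the 10 genes were counted, and the same 3 did not overlap between the groups, where 16% of all tested genes do not overlap and 7.11% are higher without overlap. The APAP libraries serve in this comparison and in that of APAP with control, so a low or high APAP value enters both.

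Ahr was at 11.8, 18.4 and 19.3 FPKM in dmPGE2+APAP livers and at 8.36, 9.41 and 8.99 FPKM in APAP livers, a log2 fold change of 0.88 (SE 0.181, limma adjusted p = 0.269). Pparg was at 1.15, 3.03 and 2.48 FPKM in dmPGE2+APAP livers and at 0.716, 0.847 and 0.595 FPKM in APAP livers, a log2 fold change of 1.44 (SE 0.295, adjusted p = 0.269). For both genes dmPGE2+APAP replicate 1 lies nearest to the APAP libraries. Without that library Ahr (log2 fold change 1.09, adjusted p = 0.0195) and Pparg (1.83, adjusted p = 0.00863) passed, and 42 genes passed in all. Over the other leave-outs neither gene passed, and the adjusted p reached 0.745 for Ahr and 0.726 for Pparg. Kupffer cell markers, resident macrophages of the liver, summed to 235 to 269 FPKM in dmPGE2+APAP livers and 164 to 245 FPKM in APAP livers. Of these 14 markers 12 had a positive log2 fold change and none was called. The median of these markers was 0.42 (0.19 without APAP replicate 3), beside 0.03 over all tested genes. Other cell types moved too, with no call: 15 of 17 hepatocyte markers were positive (median 0.15). Of 9 neutrophil markers 0 were positive, with a median of -1.05 (-0.45 without APAP replicate 1). The part of any cell type in the values of Ahr and Pparg was not tested.

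Nr3c1 was at 18.6, 14.7 and 14.2 FPKM in dmPGE2+APAP livers and at 10.4, 11.3 and 10.8 FPKM in APAP livers. The log2 fold change was 0.56 (SE 0.201, limma adjusted p = 0.448), and here dmPGE2+APAP replicate 1 is the highest of its group. Ppard was at 2.15, 1.77 and 1.22 FPKM in dmPGE2+APAP livers and at 2.34, 1.70 and 3.29 FPKM in APAP livers. These overlap, and the log2 fold change of -0.44 (SE 0.239) had an adjusted p of 0.593.

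Rxra stayed near its APAP level, at 87.5, 96.4 and 93.5 FPKM in dmPGE2+APAP livers and 82.2, 88.7 and 89.0 FPKM in APAP livers (log2 fold change 0.13, SE 0.0919, limma adjusted p = 0.693). Nr1i3 was at 40.5, 40.8 and 42.0 FPKM in dmPGE2+APAP livers, inside the APAP range of 37.7 to 53.1 FPKM. Nr1i2, Nr1h3, Esrra and Thrb also overlapped between these groups, and for these 4 and Nr1i3 the log2 fold changes lay between -0.14 (Nr1i3) and 0.12 (Nr1h3). The median over the 10 genes was 0.04, beside 0.03 over all tested genes.

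**Figure D3:**
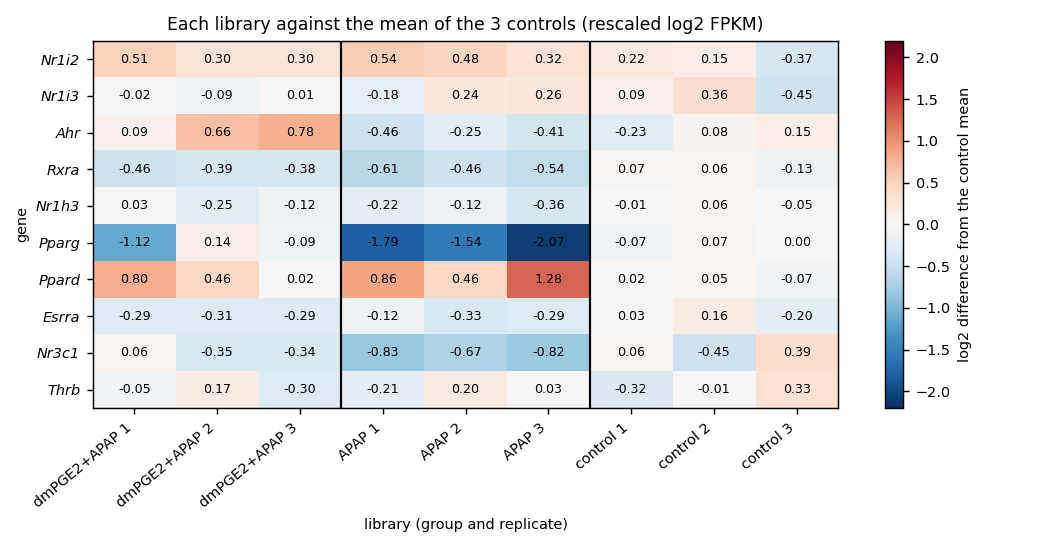
Rescaled log2 FPKM of each gene (rows) in each library (columns), minus the mean of the 3 controls; the colour and the printed number give the log2 difference. Pparg is at -2.07 to -1.54 in APAP livers and at -1.12, 0.14 and -0.09 in dmPGE2+APAP livers, while Rxra is negative in all 6 treated libraries.

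Set against control, dmPGE2+APAP livers differed in 1 of the 10 genes. Rxra fell to 0.75 of the control level, at 92.5 ± 4.54 FPKM in dmPGE2+APAP livers and 136.6 ± 5.99 FPKM in controls (log2 fold change -0.41, SE 0.0919, limma adjusted p = 0.0178), where 16.2% of all tested genes passed and 7.03% were lower. Leaving out control replicate 1 or 2, or any of the 3 dmPGE2+APAP libraries, ended this call, with adjusted p between 0.0532 and 0.0629. Ahr was at 16.5 ± 4.13 FPKM in dmPGE2+APAP livers and 12.7 ± 2.03 FPKM in controls (log2 fold change 0.51, SE 0.181, adjusted p = 0.0901), and passed without dmPGE2+APAP replicate 1 (adjusted p = 0.0153). Pparg was at 2.22 ± 0.969 FPKM in dmPGE2+APAP livers and 2.97 ± 0.177 FPKM in controls, with an adjusted p of 0.454 and a log2 fold change of -0.36 that was 0.03 without dmPGE2+APAP replicate 1. Esrra was at 8.53, 8.87 and 8.65 FPKM in dmPGE2+APAP livers and at 11.9, 13.0 and 10.8 FPKM in controls, with no overlap (log2 fold change -0.29, SE 0.108, adjusted p = 0.0995). It passed on FPKM as deposited (adjusted p = 0.0153) and without control replicate 3 (0.0239). The values of 3 of the 10 genes, Rxra, Nr1h3 and Esrra, did not overlap and were lower in dmPGE2+APAP livers, where 42.4% of tested genes do not overlap and 31.1% are lower without overlap.

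Close relatives of the 10 genes were also measured. Of 15 such genes 12 were tested in APAP against control, of which 2 fell and 1 rose, a share near the 20.7% of all tested genes that passed. Nr1h4, which encodes the bile acid receptor FXR, fell to 27.3 ± 2.84 FPKM in APAP livers, against 50.2 ± 8.13 FPKM in controls (log2 fold change -0.75, limma adjusted p = 0.00311). Nr5a2, which encodes LRH-1, a regulator of bile acid synthesis, fell to 11.2 ± 1.01 FPKM in APAP livers, against 18.1 ± 1.35 FPKM in controls (-0.57, adjusted p = 0.0137). Rxrb, a second RXR, rose to 9.85 ± 0.180 FPKM in APAP livers, against 8.04 ± 0.279 FPKM in controls (0.41, adjusted p = 0.0279). The Rxrb call was lost on FPKM as deposited (adjusted p = 0.0889) and without any 1 control or APAP library (0.0526 to 0.0816), and that of Nr5a2 without control replicate 2 or APAP replicate 1 (0.0510 and 0.0511). Rxrg, at 1.74 ± 0.288 FPKM in APAP livers and 2.19 ± 0.409 FPKM in controls, did not pass.

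Ppara, the main PPAR of hepatocytes, was at 72.4 ± 10.2 FPKM in APAP livers and 97.4 ± 14.7 FPKM in controls and did not pass (log2 fold change -0.30, limma adjusted p = 0.135). It was more abundant than Pparg and Ppard in every library. Nr1h2, the LXR beta gene, was at 9.82 ± 0.236 FPKM in APAP livers and 7.86 ± 1.66 FPKM in controls (0.46, adjusted p = 0.0536). Hnf4a, Nr0b2, Thra, Nr3c2, Esrrg and Arnt, the partner of AHR, also did not pass, with log2 fold changes between -0.52 (Nr3c2) and 0.16 (Arnt). Vdr, the vitamin D receptor gene, was under the minimum for a test, at 0.299 ± 0.0534 FPKM in APAP livers and 0.0115 ± 0.00799 FPKM in controls. Esrrb and Ahrr, the AHR repressor gene, were also under it. Between dmPGE2+APAP and APAP none of the 12 passed. Set against control, dmPGE2+APAP livers made 3 calls among these 12, where 16.2% of all tested genes passed. Nr5a2 and Nr1h4 were lower and Rxrb was higher. None was higher without control replicate 1 or 3 or dmPGE2+APAP replicate 2 or 3.

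Among 39 other nuclear receptor genes, 27 were tested and 4 rose and 7 fell in APAP against control, where 20.7% of all tested genes passed. The median log2 fold change was -0.19. Rxrb, described above, is 1 of the 4, and Nr1h4 and Nr5a2 are 2 of the 7. The largest rise was of Nr4a1, an immediate early orphan receptor, which was at 45.8 ± 21.3 FPKM in APAP livers and 0.613 ± 0.230 FPKM in controls (log2 fold change 6.02, limma adjusted p = 0.000316). Rora, a receptor of the circadian clock, rose to 28.8 ± 0.624 FPKM in APAP livers, against 15.5 ± 1.53 FPKM in controls. Nr2f2, which encodes COUP-TFII, fell to 4.65 ± 0.695 FPKM in APAP livers, against 15.2 ± 0.542 FPKM in controls (-1.58). Rarg and Esr1, which encode receptors for retinoic acid and oestrogen, fell with log2 fold changes of -1.11 and -0.93. In fitted log2 fold change Pparg was the lowest of these 27 and the 10 genes.

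**Figure D4:**
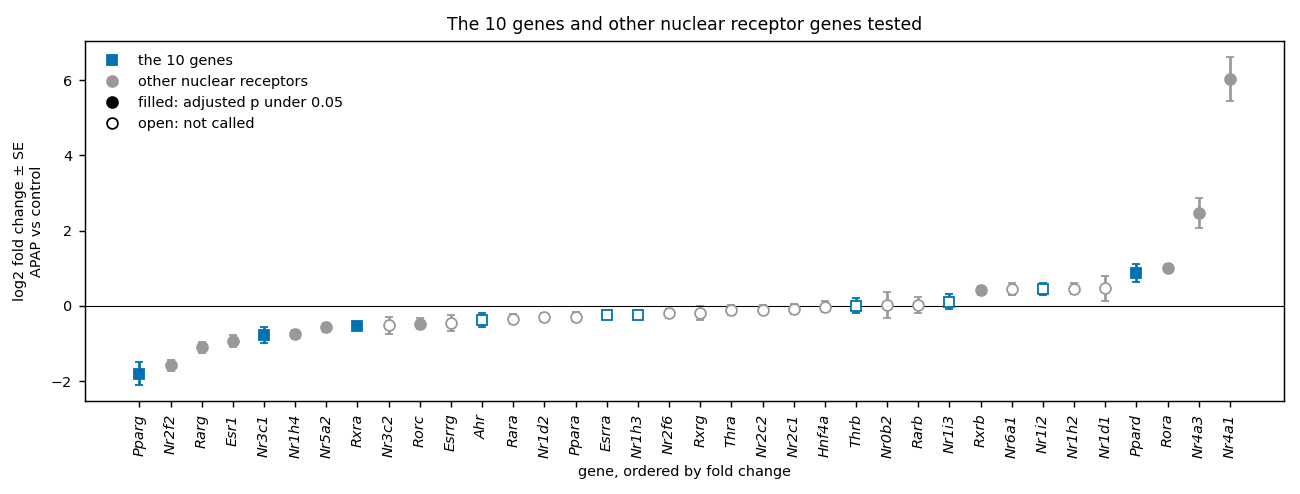
Log2 fold change with its SE (y axis) in APAP against control for the 10 genes (squares) and 26 other tested nuclear receptor genes (circles; 1 tested gene is not drawn), ordered by size (x axis); filled symbols passed. Pparg lies lowest at -1.80, and Ppard at 0.87 lies under Rora, Nr4a3 and Nr4a1.

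Coregulators carry the receptors' signal to chromatin, and all 25 listed genes were tested. In APAP against control 5 rose and none fell, where 20.7% of all tested genes passed, 11.3% higher and 9.4% lower. The median log2 fold change was 0.10, and it was -0.02 on FPKM as deposited and 0.0077 without control replicate 1. Without control replicate 1, APAP replicate 1 or APAP replicate 3, 2 rose, and in the last of these 1 also fell. Without control replicate 2, APAP replicate 2 or dmPGE2+APAP replicate 2, 3 rose. Ppargc1a, the PGC-1 alpha gene, which coactivates PPAR and ERR receptors, rose to 5.53 ± 1.51 FPKM in APAP livers, against 2.49 ± 1.32 FPKM in controls (1.35, limma adjusted p = 0.0328). It missed the threshold if control replicate 1, APAP replicate 1 or 3, or dmPGE2+APAP replicate 2 was left out (adjusted p 0.0507 to 0.116). Sirt1, a deacetylase, rose to 9.19 ± 1.36 FPKM in APAP livers, against 4.86 ± 0.239 FPKM in controls (1.02, adjusted p = 0.016, and 0.064 without APAP replicate 3). Lpin1 rose to 58.6 ± 14.4 FPKM in APAP livers, against 40.1 ± 3.17 FPKM in controls. In dmPGE2+APAP against control, where 16.2% of all tested genes passed, it was the 1 coregulator called. Lpin1 was then at 101 ± 16.004 FPKM in dmPGE2+APAP livers (1.48, limma adjusted p = 0.00129). Its call in APAP livers was lost without any 1 control, APAP replicate 1 or APAP replicate 2 (limma adjusted p 0.0635 to 0.108). The call was also lost without dmPGE2+APAP replicate 2 (0.0569).

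Chaperones hold AHR, CAR and the glucocorticoid receptor in the cytoplasm before their ligand comes. Of 14 tested, 6 rose and none fell in APAP against control, where 20.7% of all tested genes passed. The median log2 fold change was 0.32. Hsp90aa1 rose to 86.4 ± 34.3 FPKM in APAP livers, against 26.6 ± 3.74 FPKM in controls (1.75, limma adjusted p = 0.00189), and Hsp90ab1 to 371 ± 34.8 FPKM in APAP livers, against 228 ± 23.3 FPKM in controls (0.82, adjusted p = 0.00447). Hspa8 and Hsph1 rose 2.92-fold and 3.34-fold. Against control, 6 of the 14 also rose in dmPGE2+APAP livers, where 16.2% of all tested genes passed. Without dmPGE2+APAP replicate 1 or 3, 4 rose. Hsp90aa1 was at 62.9 ± 5.94 FPKM in dmPGE2+APAP livers.

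Target genes of the receptors were described from lists of known targets, many of which answer to more than 1 factor. The counts of these lists in APAP against control stand beside 20.7% of all tested genes that passed, 11.3% higher and 9.4% lower. For PXR and CAR, 28 of 35 were tested, 2 rose and 5 fell in APAP against control (median log2 fold change -0.28). Without APAP replicate 2, 9 fell, without control replicate 3, 6 fell, and without any other single library 2 or 3 fell. Cyp2a5, a P450 that oxidises coumarin, fell to 39.2 ± 15.4 FPKM in APAP livers, against 265 ± 65.5 FPKM in controls (-2.67, limma adjusted p = 0.000451), and Alas1, the rate-limiting enzyme of hepatic haem synthesis, fell to 84.5 ± 12.6 FPKM in APAP livers, against 187 ± 35.6 FPKM in controls (-1.01). Gsta1, a glutathione transferase gene, rose to 11.7 ± 2.04 FPKM in APAP livers, against 0.531 ± 0.695 FPKM in controls (4.94, adjusted p = 0.00705). Genes of the Cyp2a, Cyp2b, Cyp3a and Gsta families have near-identical copies, so how reads were split among them is uncertain. The usual readouts of PXR and CAR, Cyp3a11 and Cyp2b10, did not pass.

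Cyp3a11 was at 646, 1346 and 753 FPKM in APAP livers and at 1581, 1568 and 1427 FPKM in controls (log2 fold change -0.69, limma adjusted p = 0.101), so the groups do not overlap but the APAP libraries differ widely. With dmPGE2 before APAP it was at 1188, 1612 and 1533 FPKM, a log2 fold change of 0.75 from APAP (adjusted p = 0.447). Cyp2b10 was at 4.31, 27.3 and 3.28 FPKM in APAP livers and at 4.44, 3.94 and 1.52 FPKM in controls, and APAP replicate 2 alone was high. For the whole list 24 of 28 genes had a positive log2 fold change in dmPGE2+APAP against APAP, and none was called. The list's median was 0.35 (0.19 without APAP replicate 3), beside 0.03 over all tested genes, and a shift of the list was not tested.

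For AHR, 10 of 14 targets were tested and 2 rose, a share near the 20.7% of all tested genes that passed. Tiparp, a feedback repressor of AHR and 1 of the 2, rose to 19.9 ± 8.70 FPKM in APAP livers, against 1.98 ± 0.427 FPKM in controls (log2 fold change 3.30, limma adjusted p = 0.00109). The classical AHR targets did not pass. Cyp1a1 was at 0.477 ± 0.124 FPKM in APAP livers and 0.638 ± 0.189 FPKM in controls, and Cyp1a2 at 151 ± 35.1 FPKM in APAP livers and 267 ± 178 FPKM in controls, where control replicate 3 alone reached 472 FPKM. In dmPGE2+APAP livers, where Ahr itself was at its highest, Cyp1a1 was at 0.504 ± 0.232 FPKM and Cyp1a2 at 205 ± 28.7 FPKM, and neither passed against either group.

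For LXR, all 20 targets, Nr1h3 itself among them, were tested, 1 rose and 5 fell in APAP against control (median log2 fold change -0.37). The median was -0.57 without control replicate 2, and 3 rose without control replicate 3 and 2 without dmPGE2+APAP replicate 1. Cyp7a1, whose enzyme sets the rate of bile acid synthesis, fell to 4.82 ± 2.498 FPKM in APAP livers, against 33.8 ± 14.2 FPKM in controls (-2.72, limma adjusted p = 0.0243), and Abcg5, a sterol exporter, to 17.7 ± 0.583 FPKM in APAP livers, against 34.6 ± 4.87 FPKM in controls (-0.83, adjusted p = 0.00107). Abca1, the cholesterol exporter, and Srebf1, the regulator of fatty acid synthesis, did not pass, and the log2 fold change of Srebf1, -0.68, became 0.02 without control replicate 3.

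For PPAR, 28 of 32 targets were tested, and 10 rose and none fell in APAP against control (median log2 fold change 0.97). The median rests on control replicate 3, where Cyp4a14, a fatty acid hydroxylase gene, was at 10.4 FPKM beside 2248 and 2502 FPKM in the other controls, and Ehhadh, of peroxisomal oxidation, at 89.2 FPKM beside 375 and 448 FPKM. Without that library the median was 0.31, and 11 rose and none fell. Pdk4, which spares glucose by shutting pyruvate dehydrogenase, was at 77.4, 62.9 and 106 FPKM in APAP livers and at 2.06, 2.63 and 1.23 FPKM in controls (5.46, limma adjusted p = 0.000132). Angptl4, an inhibitor of lipoprotein lipase, was at 95.2, 102 and 95.6 FPKM in APAP livers and at 43.2, 42.4 and 33.6 FPKM in controls (1.42, adjusted p = 0.000266). Cidec and the hormone gene Fgf21 rose 39.6-fold and 9.52-fold. In dmPGE2+APAP livers Pdk4 was at 9.46, 30.4 and 29.0 FPKM and Angptl4 at 54.9, 60.9 and 66.4 FPKM, below every APAP library, although neither difference from APAP passed (-1.95, adjusted p = 0.308, and -0.66, adjusted p = 0.269). Against control both were still higher in dmPGE2+APAP livers (3.51, adjusted p = 0.00122, and 0.77, adjusted p = 0.006).

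**Figure D5:**
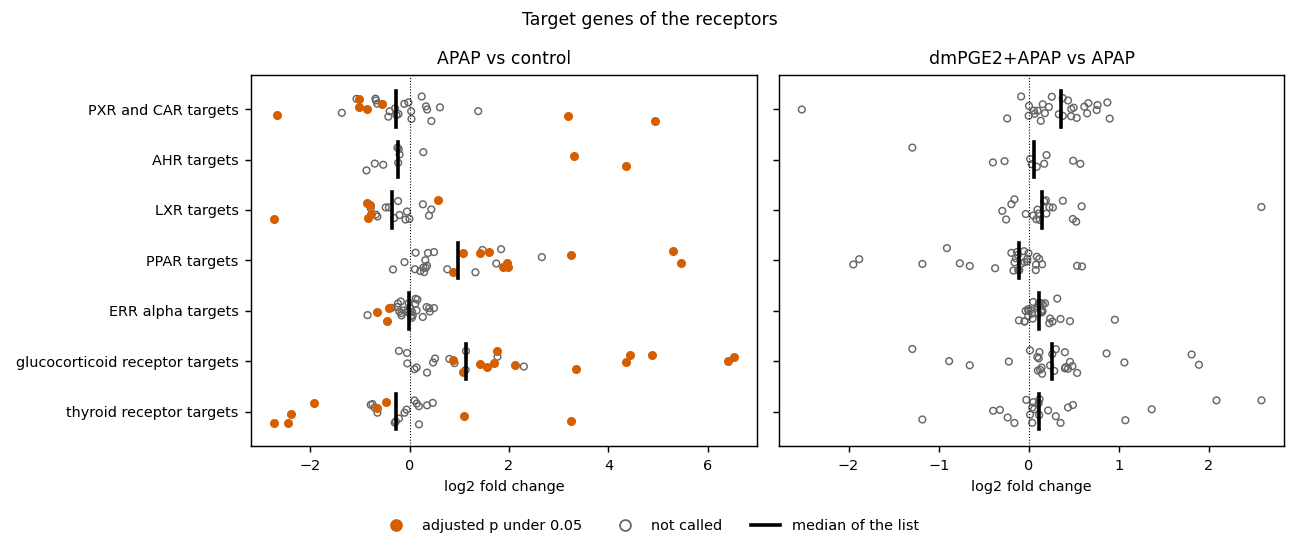
Log2 fold change (x axis) of the tested target genes of each receptor (rows) in APAP against control (left panel) and dmPGE2+APAP against APAP (right panel); filled points passed and the black bar is the list's median. In the left panel the medians are 0.97 for PPAR targets and 1.13 for glucocorticoid receptor targets and lie under 0 for the other lists. Without control replicate 3 the PPAR median is 0.31 and the glucocorticoid receptor median 0.95. Without APAP replicate 3 the ERR alpha median is 0.05, and no point is filled in the right panel.

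For ERR alpha, 29 of 30 targets, Esrra itself among them, were tested, none rose and 3 fell in APAP against control (median log2 fold change -0.02, and 0.05 without APAP replicate 3). Without control replicate 3, 1 rose and 6 fell. Idh3a, of the citric acid cycle, fell to 8.45 ± 0.555 FPKM in APAP livers, against 14.6 ± 1.18 FPKM in controls (-0.66, limma adjusted p = 0.00768), with Gabpa and Mfn2 at -0.47 and -0.42. Cycs, the cytochrome c gene, was at 19.0 ± 3.39 FPKM in APAP livers and 18.9 ± 1.14 FPKM in controls.

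For the glucocorticoid receptor, 27 of 28 targets were tested, and 13 rose and none fell in APAP against control (median log2 fold change 1.13), while Nr3c1 itself fell. Cdkn1a (6.52), Mt2 (6.41), Mt1 (4.87) and Igfbp1 (4.43) rose most, genes that other stress pathways are also known to induce. The narrower readouts were mixed. Per1, a clock gene, rose to 15.0 ± 1.10 FPKM in APAP livers, against 8.20 ± 3.48 FPKM in controls (1.08, adjusted p = 0.033 by limma), whereas Tsc22d3, which encodes GILZ, and Fkbp5 did not pass (0.47, adjusted p = 0.108, and 1.13, adjusted p = 0.134). Fkbp5 was at 47.8, 67.8 and 53.6 FPKM in APAP livers and at 50.4, 38.9 and 10.7 FPKM in controls, the last of these in control replicate 3. In dmPGE2+APAP against control 18 of 27 rose and none fell, with a median of 1.43, where 16.2% of all tested genes passed. Without dmPGE2+APAP replicate 1, 2 or 3, 15, 14 and 13 rose, and without control replicate 1 or 3, 19 rose. Tsc22d3 was among the 18, at 49.7 ± 9.02 FPKM in dmPGE2+APAP livers and 33.5 ± 2.25 FPKM in controls (0.71, limma adjusted p = 0.0345).

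For the thyroid hormone receptor, 23 of 26 targets were tested, 2 rose and 6 fell in APAP against control (median log2 fold change -0.28, and -0.14 without control replicate 3). Without APAP replicate 1, 3 fell. Serpina7, the thyroxine-binding globulin gene, fell to 0.720 ± 0.439 FPKM in APAP livers, against 5.03 ± 3.06 FPKM in controls (-2.46, limma adjusted p = 0.0127). Dio1, the deiodinase that activates thyroid hormone, was at 26.3 ± 6.65 FPKM in APAP livers and 47.6 ± 17.3 FPKM in controls (-0.71, adjusted p = 0.0646). Thrsp was at 9.33, 20.8 and 9.83 FPKM in APAP livers and at 6.81, 10.5 and 164 FPKM in controls, so that its mean there rests on control replicate 3. In dmPGE2+APAP livers it was at 43.8, 53.9 and 58.8 FPKM, above every APAP library, without passing (log2 fold change 2.08, adjusted p = 0.549).

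The second deposited table lists transcripts, and 20 of them are entries of 8 of the 10 genes, mostly isoforms that keep an intron. Nr1i2 and Nr3c1 have none. Of the 20, 16 were tested and 1 fell in APAP against control, where 3.59% of 22984 transcripts passed and 0.962% were lower. This was Esrra-202, at 0.579, 0.419 and 0.450 FPKM in APAP livers and at 1.47, 1.38 and 0.938 FPKM in controls (log2 fold change -1.25, SE 0.272, limma adjusted p = 0.0382). Without control replicate 1, any APAP library, or dmPGE2+APAP replicate 2 or 3 it no longer passed, nor did it in a fit of those 2 groups alone. Ppard-203 was at 1.21, 1.04 and 1.11 FPKM in APAP livers and, in controls, at 0.654 FPKM in replicate 2 and listed at 0 in the other 2 (2.59, adjusted p = 0.0754). None of the 16 passed by limma in dmPGE2+APAP against control, where 1.78% of transcripts did and 3 of the 16 had an unadjusted p under 0.05, beside 16.1% of all. In dmPGE2+APAP against APAP no transcript of the table passed, 6.45% had an unadjusted p under 0.05, and 0 of the 16 did.

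These entries made up very unequal parts of their genes, taken as the entries over the sum of the entries and the gene's mRNA value. The parts, and the values with entries added, assume that the mRNA value does not already hold these entries. This was not checked. For Nr1i3 they held 28.9% of the gene's summed FPKM in APAP livers and 31.3% in controls, mainly Nr1i3-206 and Nr1i3-207. For Ppard they held 40.4% in APAP livers and 31.3% in controls, and for Rxra under 1% in every group. For Pparg they held 13% in APAP livers, 3.97% in dmPGE2+APAP livers and 1.32% in controls. The Pparg entries were under the minimum for a test. Their mean sum was 0.107 FPKM in APAP livers, 0.116 FPKM in dmPGE2+APAP livers and 0.0387 FPKM in controls. The gene itself was at 0.719, 2.22 and 2.97 FPKM in these groups, so the share rests on very low values and moves with the gene. With the entries added to their genes, the same number of the 10 genes, 4, passed in APAP against control.

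Markers of cell types are given here whether or not they moved with acetaminophen, and their part in the receptor values was not tested. The counts of calls stand beside 20.7% of all tested genes that passed in APAP against control. Neutrophil markers, of which 6 of 9 tested rose and none fell, summed to 22.1 to 63.4 FPKM in APAP livers, 11.4 to 20.6 FPKM in dmPGE2+APAP livers and 4.18 to 25.2 FPKM in controls, and Camp was at 0 in all libraries. Lcn2 made up 16.4 of the 63.4 FPKM in APAP replicate 1 and 17.7 of the 25.2 FPKM in control replicate 1. Without APAP replicate 1 or 3, 6 were tested, of which 3 and 2 rose. The rest of the 9 neutrophil markers thus passed the filter only with an APAP library in it. A rise among them was partly set by the filter. Markers of Kupffer cells, which also carry Nr1h3, summed to 164 to 245 FPKM in APAP livers and 221 to 246 FPKM in controls, with 2 of 14 higher and 1, the iron exporter gene Slc40a1, lower. Stellate cell markers, of which 4 of 16 rose and 1 fell, summed to 208 to 234 FPKM in APAP livers and 149 to 210 FPKM in controls, and 9 rose without control replicate 3. Of 17 hepatocyte markers 1 was lower in APAP livers and none was higher. Endothelial markers were split, with 2 of 14 higher and 2 lower, 1 of 6 cholangiocyte markers was higher, none of 5 monocyte markers passed, and no lymphocyte marker reached the minimum. Of the exocrine pancreas markers Prss1, Prss2, Cela3b, Cpa1, Cpb1 and Pnlip were at 0 in all libraries, and Cela1 alone was tested, at 4.08 to 5.32 FPKM in APAP livers and 4.04 to 14.3 FPKM in controls.

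The genes whose levels ran most like each receptor over the 9 libraries are given as a description, since the libraries share the group differences. Pparg ran with Prickle1 (Pearson r = 0.986), Sgpp1 and Scamp1, and Rxra with Gpsm2 (r = 0.985) and Cand1. Ppard ran with Llph (r = 0.985), Insc and Nup107, and Nr1i2 with Cct2 (r = 0.986) and Pcx, the pyruvate carboxylase gene. Nr1h3 ran with Ubxn8 (r = 0.979) and Esrra with Myo1c (r = 0.971). The likeness was weaker for Nr1i3 with Zap70 (r = 0.944), Ahr with 9530068E07Rik (r = 0.940) and Thrb with Zfp277 (r = 0.890). Each r given is the highest among 11547 genes searched.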

How the data were processed

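Per the file headers, the 2 tables of FPKM that the authors deposited list genes for mRNA and transcripts for lncRNA. Libraries came from ribosome-depleted RNA with a dUTP-marked strand, per the labels' protocols. The submitters' processing notes name HISAT2 and the build GRCm38 (mm10). The quantifier, its use of strand and the annotation release are not given in the sources used here. The labels do not explain the name of the control columns, which were assigned by the series' own wording and the replicate number. The lncRNA read counts, as deposited, are a score: each value of 1000 or more lay within 1% of the FPKM times the locus span times a constant per library. The mRNA read counts were taken to be of the same kind without this check. No test on counts was therefore made, and FPKM were used.

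FPKM were rescaled per library by a trimmed mean of log ratios with no weights (trimming 30% by ratio and 5% by abundance), 0.1 was added, and the log2 was fitted with limma 3.58.1 in R 4.3.3 (3 group means, abundance trend, 6 residual degrees of freedom, two-sided, Benjamini-Hochberg at 0.05 over all features of a table). Genes needed 0.5 FPKM and transcripts 0.1 FPKM in 3 libraries. Means and SDs are of deposited FPKM, folds of rescaled values. The fit was also run on simulated data. Their noise was independent between genes and their planted changes were larger than those of the receptor genes, so they do not check the calls made here. Alternatives changed the pseudocount, filter, scaling, design, variance model and libraries. Leaving libraries out of the lists was added after seeing the data.

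The 10 genes and all lists were chosen with earlier results of these data known. The receptors, their relatives and the index targets were named whatever their values, and of other lists up to 4 called genes per comparison and direction with the largest change. The 3 most similar genes were those with the highest Pearson r. A few genes these rules select are not reported here. Promoters come from RefSeq (GRCm38.p6), exons and isoform names from GENCODE M21. Python 3.11.15, pandas 2.3.3 and matplotlib 3.10.9 drew the figures.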

Additional observations from a re-analysis of the deposited data

How the results depend on the processing

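Rxra and Pparg passed in APAP against control under 20 other settings and with lncRNA entries added, and the counts of the 10 receptor genes rest on few libraries. In APAP against control 4 of the 10 passed and 2 to 4 did with 1 library left out (2 without control replicate 1, APAP replicate 1 or APAP replicate 3), while 1532 to 2296 genes passed in all, beside 2393, the fewest without APAP replicate 3 (1532) and control replicate 2 (1588). In dmPGE2+APAP against APAP 0 to 2 of the 10 and 0 to 42 of all genes passed with 1 library left out, and 2 genes with the other group left out of the fit. In dmPGE2+APAP against control 0 to 2 of the 10 and 1028 to 1819 genes passed with 1 library left out, beside 1 and 1870, with 1028, 1134 and 1205 without dmPGE2+APAP replicate 2, dmPGE2+APAP replicate 3 and control replicate 2. There, 2 of the 10 passed on FPKM as deposited and 2 with the lncRNA entries added to their genes, an alternative chosen after seeing the data. Isoform entries passing were 0 to 1 in APAP against control and 0 to 1 in dmPGE2+APAP against control with 1 library left out, 0 in APAP against control in a fit of those groups alone, and 1 in dmPGE2+APAP against control at the higher minimum.

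No pairing by replicate number was seen in these values: the deviations of same-numbered libraries correlate at -0.117 to 0.0716 and 2 of 9 correlate best with their own number. This is a description and not a test of pairing. With the replicate block, 2025, 0 and 1490 genes passed in the 3 comparisons, with 4 (Nr1i2 in place of Ppard), 0 and 2 receptor genes (Rxra, and Ahr at an adjusted p of 0.0441) and 0 isoform entries in each.

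Some directions turned. On FPKM as deposited these were Nr1i3 (-0.018), Thrb (-0.11), Nr0b2 (-0.10) and Cycs (-0.010) in APAP against control, where 31.6% of calls were higher, beside 54.6% with rescaling, and by quantile normalization Thrb (-0.012) and Nr0b2 (-0.018). With lncRNA entries added Nr0b2 was at -0.020. With 1 library left out, in APAP against control, log2 fold changes ranged from -0.15 to 0.29 for Nr1i3, -0.15 to 0.15 for Thrb, -0.24 to 0.20 for Nr0b2, -0.18 to 0.12 for Hnf4a, -0.029 to 0.19 for Cycs, -1.14 to 0.020 for Srebf1 and -1.60 to 0.62 for Thrsp. In dmPGE2+APAP against APAP they ranged from -0.088 to 0.017 for Esrra, -0.19 to 0.052 for Thrb, -0.22 to 0.38 for Cyp1a1 and -0.72 to 0.014 for Tiparp, and in dmPGE2+APAP against control from -0.28 to 0.15 for Nr1i3, -0.22 to 0.075 for Thrb and -0.61 to 0.026 for Pparg. The cause was not tested. Unknown depth leaves the counting error of low genes such as Pparg and Ppard unknown.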
